A study of Mus musculus with 12 samples.

Results

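The 36 genes described here encode the machinery that folds proteins in the endoplasmic reticulum (ER) and the sensors of the unfolded protein response. They were picked by gene symbol, with earlier results of these data known. All 36 were found among the 36875 symbols of the count table, Ero1a and Ero1b under their older symbols Ero1l and Ero1lb. By role they divided into 4 sensors and signal transducers (the sensors together with Xbp1), 13 chaperones and cochaperones, 6 disulfide isomerases and oxidases, 8 genes of ER-associated degradation and 5 genes of translocation into the ER. Of these, 35 passed the filter on low counts. Derl3, a degradation gene, did not: its counts summed to 16 over the resolution libraries, 13 over the inflammation libraries and 25 over the homeostasis libraries.

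RNA was measured by poly(A) sequencing in 12 libraries of cultured mouse fibroblast-like synoviocytes, cells that line joints and make their matrix. In the resolution group (DOX OFF, n = 4), animals drank 5% sucrose water with 1 mg/ml doxycycline over 3 weeks, and the drug was then stopped. In the inflammation group (DOX ON, n = 4) they drank the same solution and it was not withdrawn. In the homeostasis group (n = 4), called WT in the sample descriptions, they drank 5% sucrose water alone over 3 weeks. All cells are described as coming from mice with TNF-induced arthritis, where TNF is tumour necrosis factor. The labels give no allele, no promoter that responds to doxycycline, no sex, no passage and no time between withdrawal and harvest. Nor do they tie each library to an animal or culture of its own, so the spread behind the p-values may be purely technical.

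Secreted and membrane proteins enter the ER through the SEC61 channel and fold there with the help of the chaperone BiP (Hspa5), the lectins calreticulin and calnexin, and disulfide isomerases. Proteins that do not fold are drawn back into the cytosol and degraded. Unfolded protein activates the sensors IRE1 (Ern1), PERK (Eif2ak3) and ATF6. IRE1 splices the Xbp1 message into the form that encodes an active transcription factor, PERK phosphorylates the translation factor eIF2α, and ATF6 is cut to release a transcription factor. All of these steps act on RNA or protein already made, so gene-level counts do not show them. Fibroblasts of the synovium secrete collagen, which relies on a dedicated ER chaperone, HSP47 (Serpinh1), and on prolyl 4-hydroxylase, of which P4hb encodes a subunit.

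The best known DNA element of the response is the ER stress response element (ERSE), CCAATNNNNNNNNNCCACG, bound by NF-Y at CCAAT and by ATF6 or spliced XBP1 at CCACG. Promoter windows of 250 bases before to 50 bases after the annotated start site (RefSeq, build GRCm38.p6) were at hand for 29 of the 36 genes. An exact ERSE on either strand was present in 10 of these 29 (34.5%), against 37 of 27025 genes with a window (0.137%). The 37 include these 10, and the element is known from genes of this response, so the contrast is no result of these data. The 10 were Hspa5, Hsp90b1, Calr, Canx, Dnajc3, Creld2, Pdia6, Ero1lb, Syvn1 and Derl3, of which Hsp90b1 held the element at 2 places. Such a match is a stretch of letters and says nothing of binding in these cells. The stretches below carry the element with 40 bases on either side. They are the 5 with the largest absolute fold change in resolution against homeostasis, given 5′ to 3′ in the direction of transcription, with the fixed letters of the element in capitals. In Calr and Creld2 the element runs on the opposite strand and therefore reads CGTGG before ATTGG.
Pdia6, chr12:17266451-17266549, plus strand: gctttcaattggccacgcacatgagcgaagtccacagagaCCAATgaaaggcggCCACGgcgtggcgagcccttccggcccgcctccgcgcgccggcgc
Calr, chr8:84847035-84847133, minus strand: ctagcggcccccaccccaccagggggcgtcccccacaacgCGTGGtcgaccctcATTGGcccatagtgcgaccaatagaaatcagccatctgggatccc
Creld2, chr15:88819480-88819578, plus strand: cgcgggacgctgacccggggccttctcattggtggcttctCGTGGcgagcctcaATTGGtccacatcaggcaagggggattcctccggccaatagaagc
Hspa5, chr2:34771985-34772083, plus strand: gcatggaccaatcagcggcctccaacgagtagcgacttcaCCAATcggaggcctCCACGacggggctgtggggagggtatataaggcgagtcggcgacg
Syvn1, chr19:6046492-6046590, plus strand: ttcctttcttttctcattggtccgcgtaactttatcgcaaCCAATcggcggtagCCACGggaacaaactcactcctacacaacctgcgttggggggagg
The element began 98 bases before the start site in Pdia6, 162 in Calr, 126 in Creld2, 65 in Hspa5 and 44 in Syvn1. A second form, ERSE-II (ATTGGNCCACG), was found in Dnajb11 and Herpud1 (6.9% of the 29, against 0.0444% of all windows). The XBP1 site TGACGTGG was found in 0 of the 29 windows and in 0.714% of all windows. The ATF4-type element TTGCATCA was found in Herpud1 alone (3.45%), against 1.03% of all windows. Of the 11 tested genes with an ERSE or ERSE-II, 8 were lower in resolution than in homeostasis and 3 did not pass, as the values below show. Of all 35 members tested 23 were lower, as were 25.8% of all 15049 genes tested. Whether the element bears on the change was not tested.

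**Figure D1:**
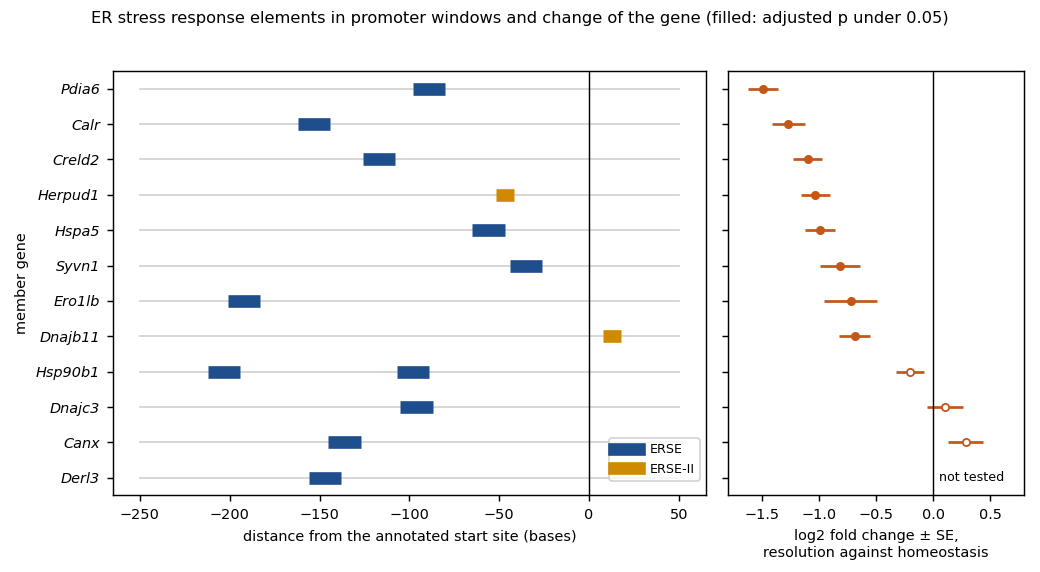
Position of exact ERSE (blue) and ERSE-II (orange) matches from 250 bases before to 50 bases after the start site in 12 genes (left), and the log2 fold change ± SE of the same gene in resolution against homeostasis (right, n = 4 libraries each; filled where adjusted p is under 0.05). The fold changes run from -1.49 for Pdia6 to 0.28 for Canx, and Hsp90b1, with 2 matches, lies at -0.205.

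Total counts ran from 18120745 to 34971537 per library. Some libraries stood apart within their groups. Homeostasis 2 held the highest level of 19 of the 35 genes among the 4 homeostasis libraries, against 30.4% of all genes tested. Resolution 2 and inflammation 1 each held the highest level of 17 within their groups, against 34.7% and 27.6% of all genes. The lowest level was in homeostasis 1 for 18 of the 35 (23.2% of all genes), in inflammation 4 for 17 (34.1%) and in resolution 3 for 16 (26.4%). The 3 groups also differed in ways that the labels do not state. Y-linked Ddx3y summed to 0 counts in resolution and 3 in inflammation, against 2150 in homeostasis, while Xist averaged 174 ± 67.0 and 110 ± 35.3 CPM (counts scaled to a common library size with TMM factors), against 10.8 ± 3.28 CPM. Sex, genotype and cell source can therefore not be told apart from doxycycline in either comparison against homeostasis. Tnf averaged 0.308 ± 0.143 CPM in resolution and 1.02 ± 0.518 CPM in inflammation, against 3.97 ± 2.20 CPM in homeostasis (SD, n = 4 each).

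The labelled cell type was checked against 12 fibroblast markers, which were detected in every group (2 higher and 8 lower in resolution than in homeostasis, 2 higher and 5 lower in inflammation). Their summed level was 11470 to 17050 CPM in resolution, 22210 to 25720 CPM in inflammation and 29810 to 32170 CPM in homeostasis, and Col1a1 averaged 3118 ± 1181, 8150 ± 485 and 9560 ± 984 CPM in the same order of groups. The 10 chondrocyte markers summed to 63.0 to 93.1 CPM in resolution, 35.5 to 45.8 in inflammation and 868 to 1122 in homeostasis, and 4 of the 6 tested were lower in either doxycycline group. The 12 macrophage markers summed to 61.5 to 69.1, 646 to 709 and 114 to 153 CPM, with 7 of 11 tested lower in resolution and 11 higher in inflammation than in homeostasis. Of 9 markers of B cells and plasma cells, secretory cells rich in ER, Cd79b and Tnfrsf17 were at 0 counts in all 12 libraries. The 8 skeletal muscle markers summed to 3.59 to 5.61 CPM in resolution, 6.22 to 8.66 in inflammation and 17.5 to 24.0 in homeostasis, the 6 Schwann cell markers to 18.9 to 22.7, 9.84 to 12.7 and 28.8 to 32.5, and the 6 osteoblast markers to 58.7 to 86.8, 71.3 to 82.5 and 45.4 to 76.9. Endothelial markers (6) summed to between 7.05 and 16.9 CPM in every library. The part of these differences in the results below was not tested, and in bulk RNA fewer cells of a type and less RNA per cell cannot be told apart.

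Together the 36 genes took 1.47% ± 0.066 of all counts in resolution, 1.74% ± 0.078 in inflammation and 2.41% ± 0.168 in homeostasis (SD, n = 4 each). The ranges were 1.38% to 1.54%, 1.67% to 1.84% and 2.27% to 2.65%, so that no library of one group overlapped another group. Chaperones and cochaperones made up most of it, at 0.836% ± 0.028, 0.984% ± 0.058 and 1.40% ± 0.112, followed by the disulfide isomerases and oxidases at 0.501% ± 0.033, 0.603% ± 0.024 and 0.820% ± 0.057. Per length, measured as TPM, the share of transcripts scaled by length, from the longest coding transcript, Calr ranked highest of the 36 with a mean of 4176 TPM over all libraries, 16th of 26985 genes. P4hb (2306 TPM), Pdia3 (1846), Hsp90b1 (1766), Serpinh1 (1684), Pdia6 (1192) and Hspa5 (1074) followed. The sensors lay far below, with Eif2ak3 at 31.7, Atf6 at 15.7 and Ern1 at 11.1 TPM, and Derl3 stood last at 0.398 TPM.

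Most genes of the group were lower in resolution than in homeostasis. Of 35 tested, 23 fell, 1 rose (Dnajb9) and 11 did not pass at an adjusted p of 0.05, with a median log2 fold change of -0.72. Of all 15049 genes tested, 53.3% passed (27.5% higher, 25.8% lower), with a median of -0.0067. In inflammation against homeostasis 17 fell, 1 rose and 17 did not pass (median -0.41), where 37.2% of all genes passed (19.0% higher, 18.3% lower; median -0.014). In resolution against inflammation 14 fell, 0 rose and 21 did not pass (median -0.28), where 16.2% of all genes passed (8.52% higher, 7.64% lower; median 0.020). The comparisons share groups and are not independent of each other. The group means ran in the order resolution, inflammation, homeostasis from low to high for 27 of the 35 genes (77.1%), against 29.3% of all genes tested. Dnajb9 alone ran in the opposite order (2.86%, against 29.8% of all genes). The other 7 genes with another order were Ern1, Atf6, Canx, Dnajc3, Sil1, Pdia3 and Ero1l.

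Each library was left out in turn to see which calls rested on it. In resolution against homeostasis the 24 calls held in every such fit but those of Ero1lb, Edem2 and Derl2, and in inflammation against homeostasis but those of Atf6 and Dnajb11. Genes without a call gained one in some of these fits: Canx, Derl1 and Sel1l in resolution against homeostasis. The calls between resolution and inflammation were less stable. There the 14 calls, all falls, were 13 without homeostasis 3, 6 without inflammation 1, 6 without inflammation 2 and 9 without inflammation 3. They were 9 without resolution 1, 5 without resolution 3 and 6 without resolution 4. Without resolution 2 there were 15 falls, with Edem2 added, and 1 rise, that of Canx. The 5 falls that held throughout were those of Hyou1, Serpinh1, Pdia4, Pdia6 and P4hb. Over all genes the calls in that comparison moved alike, between 1242 and 4191, against 2431 with all libraries. The lowest was without resolution 4 and the highest without resolution 2.

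**Figure D2:**
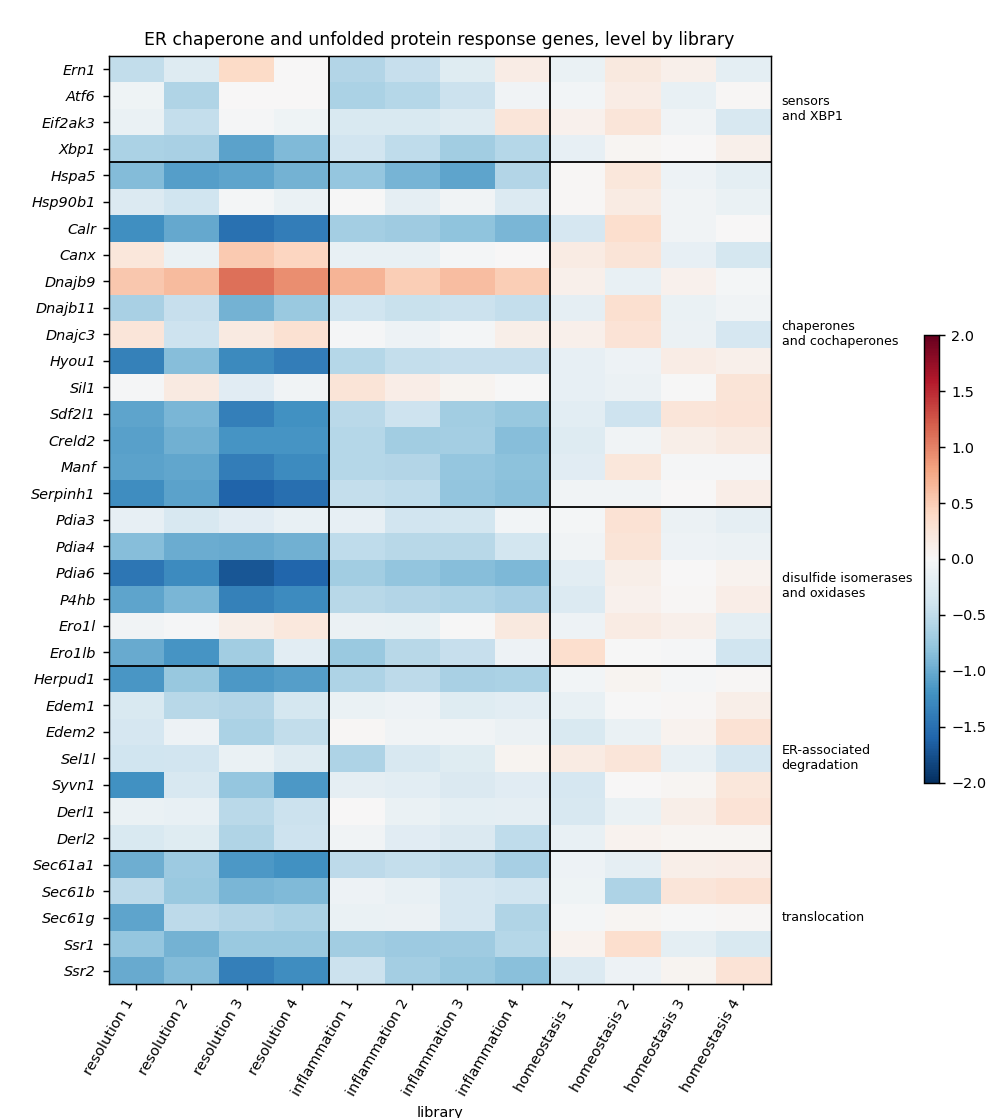
Level of the 35 tested genes (rows, by role) in the 12 libraries (columns, resolution left, then inflammation, then homeostasis), as log2 of normalized CPM over the homeostasis mean; blue is lower and red is higher. Rows such as Pdia6, Serpinh1 and Hyou1 are darkest blue in the resolution libraries, Dnajb9 is red in resolution and inflammation, and the rows of Ern1, Atf6 and Eif2ak3 are mixed within groups.

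Ern1 and Eif2ak3 passed in no comparison and Atf6 only at the limit in inflammation, while Xbp1, the transcription factor gene downstream of IRE1, passed in both comparisons against homeostasis. Ern1 (chr11:106394650-106487852, minus strand), which encodes the kinase and endoribonuclease IRE1, stood at 22.7, 26.8, 41.8 and 32.4 CPM in resolution libraries 1 to 4. It stood at 21.3, 23.4, 27.1 and 35.5 CPM in inflammation and 29.3, 36.7, 34.4 and 28.05 CPM in homeostasis. The groups overlapped, and Ern1 passed in neither comparison against homeostasis (-0.05, adjusted p = 0.829 in resolution and -0.26, adjusted p = 0.293 in inflammation) nor between resolution and inflammation (0.21, adjusted p = 0.461). Eif2ak3 (chr6:70844515-70905245, plus strand), the gene of PERK, stood at 54.2, 42.7, 58.3 and 56.15 CPM in resolution, 48.0, 48.1, 49.5 and 70.5 CPM in inflammation and 63.1, 70.0, 56.7 and 47.6 CPM in homeostasis. Its groups overlapped too, with a single high library in inflammation, and it passed in none of the 3 comparisons (-0.17, adjusted p = 0.388 in resolution against homeostasis, -0.14, adjusted p = 0.531 in inflammation against homeostasis, -0.03, adjusted p = 0.906 in resolution against inflammation). Within 2 SE the resolution difference from homeostasis of Ern1 lay between -0.43 and 0.32 and that of Eif2ak3 between -0.49 and 0.15 on the log2 scale, so smaller changes could not be told from none at this spread.

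Atf6 (chr1:170704674-170867771, minus strand), the membrane-bound transcription factor that is released by cutting, stood at 46.95, 32.7, 50.1 and 50.3 CPM in resolution. In inflammation it stood at 32.1, 33.7, 36.8 and 47.4 CPM and in homeostasis at 47.9, 55.4, 45.02 and 50.7 CPM. Inflammation was lower than homeostasis at the limit of the test (-0.41 ± 0.16 SE, adjusted p = 0.049), and its highest library lay within the homeostasis range. The call was kept only without inflammation 4 or resolution 2 and lost without any other single library (adjusted p between 0.0505 and 0.167). A replicate block, which fits the replicate number as a term, lost it too (-0.43, adjusted p = 0.0536). In resolution Atf6 did not pass (-0.145, adjusted p = 0.458), but it did after offsets for GC content and length (-0.55, adjusted p = 0.000534). With the same offsets the fall in inflammation passed as well (-0.49, adjusted p = 0.00187).

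Xbp1 (chr11:5520659-5525893, plus strand) stood at 97.4, 97.1, 72.3 and 82.5 CPM in resolution, 116, 107, 93.4 and 102 CPM in inflammation and 135, 156, 153 and 162 CPM in homeostasis. Every library of both doxycycline groups lay below every homeostasis library. Xbp1 fell by 1.74-fold in resolution (-0.80 ± 0.13 SE, adjusted p = 3.9e-05) and by 1.45-fold in inflammation (-0.535 ± 0.13 SE, adjusted p = 0.00286), and resolution did not pass against inflammation (-0.26, adjusted p = 0.167). The counts join the spliced and unspliced forms of the message.

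**Figure D3:**
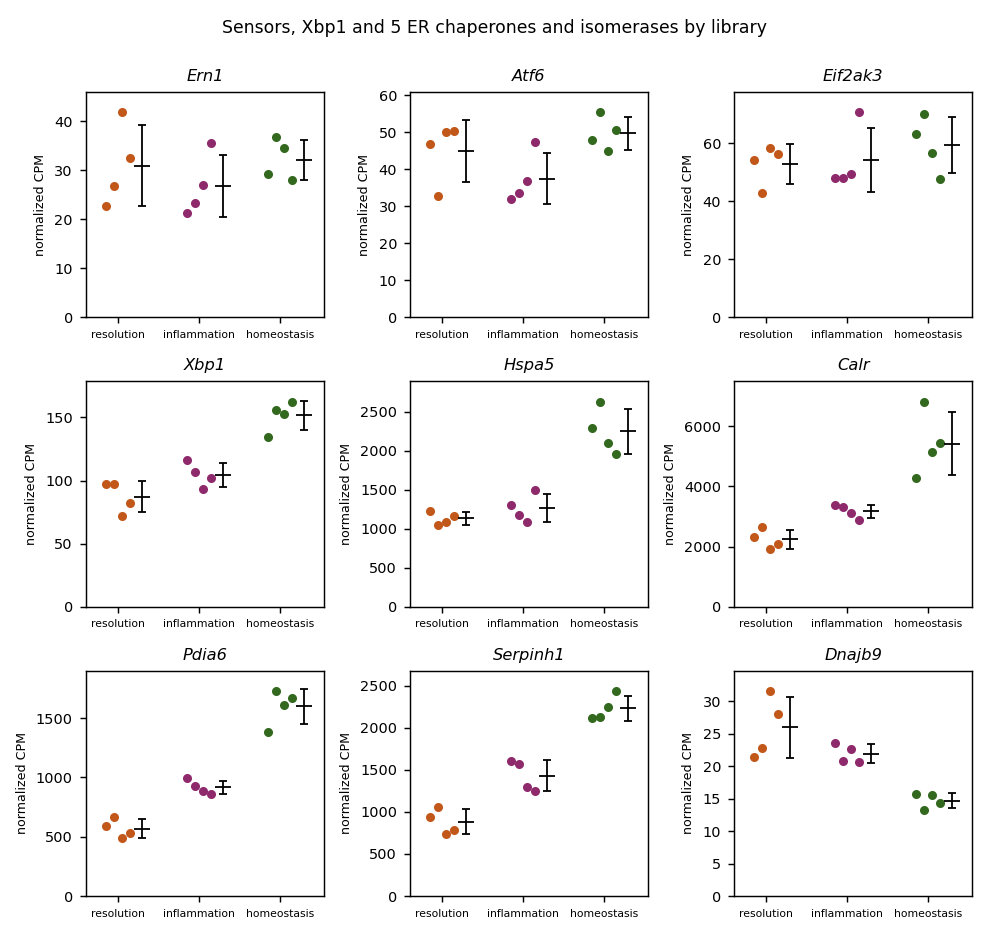
Normalized CPM in each library for the sensors Ern1, Atf6 and Eif2ak3, Xbp1, and 5 chaperones and isomerases, with the mean ± SD (black, n = 4) beside the points of each group and axes from 0. Pdia6 and Serpinh1 separate into 3 levels with resolution lowest, Hspa5 and Xbp1 separate homeostasis from both doxycycline groups, and Dnajb9 is lowest in homeostasis.

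Of the 13 chaperones and cochaperones, 8 fell, 1 rose and 4 missed the threshold in resolution against homeostasis (median log2 fold change -0.99). In inflammation 8 fell, 1 rose and 4 did not pass (median -0.49). Over all genes tested, 25.8% fell and 27.5% rose in the first comparison, and 18.3% fell and 19.0% rose in the second. Hspa5 (chr2:34771970-34777547, plus strand) encodes BiP, the main HSP70 chaperone of the ER, which also holds the sensors inactive. It stood at 1231, 1053, 1081 and 1167 CPM in resolution, 1311, 1175, 1088 and 1502 CPM in inflammation and 2295, 2630, 2107 and 1962 CPM in homeostasis. All 8 doxycycline libraries lay below the lowest homeostasis library, while resolution and inflammation overlapped. Hspa5 fell by 1.985-fold in resolution (-0.99 ± 0.13 SE, adjusted p = 4.58e-06) and by 1.77-fold in inflammation (-0.825 ± 0.13 SE, adjusted p = 7.38e-05), and it did not pass between the doxycycline groups (-0.16, adjusted p = 0.397). With offsets for GC content and length it passed there as well (-0.405, adjusted p = 0.00925).

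Calr (chr8:84841850-84846934, minus strand) encodes calreticulin, the soluble lectin chaperone and calcium store of the ER lumen. Its level was 2313, 2658, 1933 and 2088 CPM in resolution, 3368, 3297, 3115 and 2880 CPM in inflammation and 4283, 6807, 5149 and 5433 CPM in homeostasis. The 3 groups did not overlap. Calr fell by 2.41-fold in resolution against homeostasis (-1.27 ± 0.145 SE, adjusted p = 6.67e-07), by 1.71-fold in inflammation (-0.78 ± 0.14 SE, adjusted p = 0.000316) and by 1.41-fold between resolution and inflammation (-0.49 ± 0.14 SE, adjusted p = 0.0242). The last call was lost without resolution 3 (-0.44, adjusted p = 0.0836), resolution 4 (adjusted p = 0.078), inflammation 1 (0.0683) or inflammation 2 (0.0646). Canx, the membrane-bound partner calnexin, averaged 824 ± 158 CPM in resolution and 639 ± 34.0 CPM in inflammation, against 676.5 ± 130.1 CPM in homeostasis, and passed in none of the 3 comparisons (0.28, adjusted p = 0.125 in resolution against homeostasis). Its call hung on single libraries and on GC content: it was higher without resolution 2 (0.40, adjusted p = 0.0236) or without homeostasis 2 (0.39, adjusted p = 0.0443), and lower with GC and length offsets (-0.40, adjusted p = 0.000972).

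Hyou1 (chr9:44379490-44392369, plus strand), a large HSP70-like nucleotide exchange factor for BiP, stood at 273, 387, 290.0 and 269.7 CPM in resolution, 474, 506, 510.2 and 507 CPM in inflammation and 623, 654.5, 774 and 749.9 CPM in homeostasis. No groups overlapped, and resolution 2 was the highest of the resolution libraries. Hyou1 fell by 2.30-fold in resolution against homeostasis (-1.20 ± 0.13 SE, adjusted p = 4.97e-07) and by 1.64-fold against inflammation (-0.71 ± 0.13 SE, adjusted p = 0.001), the largest fall of the 35 genes in that comparison. Its fall in inflammation (-0.49 ± 0.13 SE, adjusted p = 0.00679) did not pass with homeostasis 1 and 2 as the controls (-0.35, adjusted p = 0.078). Sil1, the other exchange factor for BiP, averaged 63.9 ± 7.38, 70.3 ± 5.59 and 65.2 ± 8.915 CPM in resolution, inflammation and homeostasis and passed in no comparison. With GC and length offsets Sil1 was higher in resolution than in homeostasis (0.29, adjusted p = 0.00414).

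Among the J-domain proteins, which bring BiP to its clients, members moved in different directions. Dnajb9, which encodes ERdj4, a repressor of IRE1, was the only gene of the 35 to rise, and stood at 21.4, 22.8, 31.55 and 28.0 CPM in resolution, 23.6, 20.7, 22.6 and 20.6 CPM in inflammation and 15.7, 13.3, 15.5 and 14.3 CPM in homeostasis. Both doxycycline groups lay above every homeostasis library, in resolution by 1.77-fold (0.82 ± 0.15 SE, adjusted p = 0.000131) and in inflammation by 1.49-fold (0.58 ± 0.15 SE, adjusted p = 0.00508). Its transcript has the lowest GC content of the 36 genes (40.6%), and with GC and length offsets neither rise passed (0.04, adjusted p = 0.77 in resolution and 0.13, adjusted p = 0.372 in inflammation). Dnajb11 (ERdj3) fell to 266 ± 36.6 CPM in resolution, against 428 ± 72.4 CPM in homeostasis (-0.69 ± 0.135 SE, adjusted p = 0.000282), and in inflammation its call (-0.44, adjusted p = 0.0148) was lost without homeostasis 2 (-0.29, adjusted p = 0.0762). Dnajc3 (p58IPK, an inhibitor of PERK) averaged 122 ± 25.1, 112 ± 7.73 and 113 ± 20.35 CPM in the 3 groups and passed in none of the comparisons, but it was lower in resolution with the offsets (-0.52, adjusted p = 0.000305).

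Manf, Creld2 and Sdf2l1 encode small soluble ER proteins, known as strongly inducible targets of the response, and all 3 fell in each comparison. Manf (chr9:106838312-106891979, minus strand), a nucleotide-exchange inhibitor of BiP that is also secreted, stood at 200.5, 204, 161 and 175 CPM in resolution, 281, 279, 246 and 237 CPM in inflammation and 359.7, 489.6, 414 and 414 CPM in homeostasis. Its groups did not overlap, and it fell by 2.26-fold in resolution against homeostasis (-1.18 ± 0.13 SE, adjusted p = 4.44e-07). Creld2 (chr15:88819646-88826683, plus strand), a protein with isomerase-like activity, stood at 91.5, 99.96, 86.1 and 85.8 CPM in resolution, 131, 120.1, 121.5 and 108 CPM in inflammation and 163, 185, 211 and 221 CPM in homeostasis, again with no overlap. It fell by 2.15-fold (-1.10 ± 0.13 SE, adjusted p = 6.89e-07). Sdf2l1 (chr16:17130138-17132383, minus strand), a partner of ERdj3, stood at 27.0, 29.7, 21.6 and 24.1 CPM in resolution, 38.4, 42.05, 34.7 and 33.1 CPM in inflammation and 48.1, 41.8, 65.8 and 67.9 CPM in homeostasis. Resolution lay below both other groups, the highest inflammation library reached just above the lowest homeostasis library, and the fall in resolution was 2.18-fold (-1.13 ± 0.17 SE, adjusted p = 1.37e-05).

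In inflammation the log2 fold changes against homeostasis were -0.685, adjusted p = 0.000371 for Manf, -0.70, adjusted p = 0.000234 for Creld2 and -0.59, adjusted p = 0.0079 for Sdf2l1. With homeostasis 1 and 2 as the controls Sdf2l1 did not pass (-0.27, adjusted p = 0.214). Between resolution and inflammation Manf fell by 1.41-fold (-0.49 ± 0.13 SE, adjusted p = 0.0137), a call just missed without resolution 3 (-0.44, adjusted p = 0.0528). The calls of Creld2 (-0.40, adjusted p = 0.0337) and Sdf2l1 (-0.53, adjusted p = 0.0334) did not pass with the replicate block (-0.40, adjusted p = 0.0684 and -0.53, adjusted p = 0.0679). Creld2 and Sdf2l1 each kept the call in only 6 of 12 fits with a library left out (largest adjusted p = 0.0956 and 0.108).

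Serpinh1 (chr7:99345376-99353239, minus strand), the collagen chaperone HSP47, stood at 941, 1064, 737 and 788 CPM in resolution, 1599, 1575, 1296 and 1249 CPM in inflammation and 2121, 2124, 2249 and 2436 CPM in homeostasis. Its 3 groups lay apart from each other. The fall was 2.53-fold in resolution against homeostasis (-1.34 ± 0.14 SE, adjusted p = 1.89e-07), 1.56-fold in inflammation (-0.64 ± 0.14 SE, adjusted p = 0.00108) and 1.62-fold between resolution and inflammation (-0.70 ± 0.14 SE, adjusted p = 0.00157). Each of these calls held in 12 of 12 fits with a library left out. Hsp90b1, the ER form of HSP90 known as GRP94, carries the ERSE at 2 places and did not pass in any comparison. Its means were 1815 ± 194, 1913 ± 149.5 and 2093 ± 189 CPM in resolution, inflammation and homeostasis (-0.205, adjusted p = 0.162 in resolution against homeostasis), and with GC and length offsets it fell in resolution (-0.67, adjusted p = 4.13e-06).

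**Figure D4:**
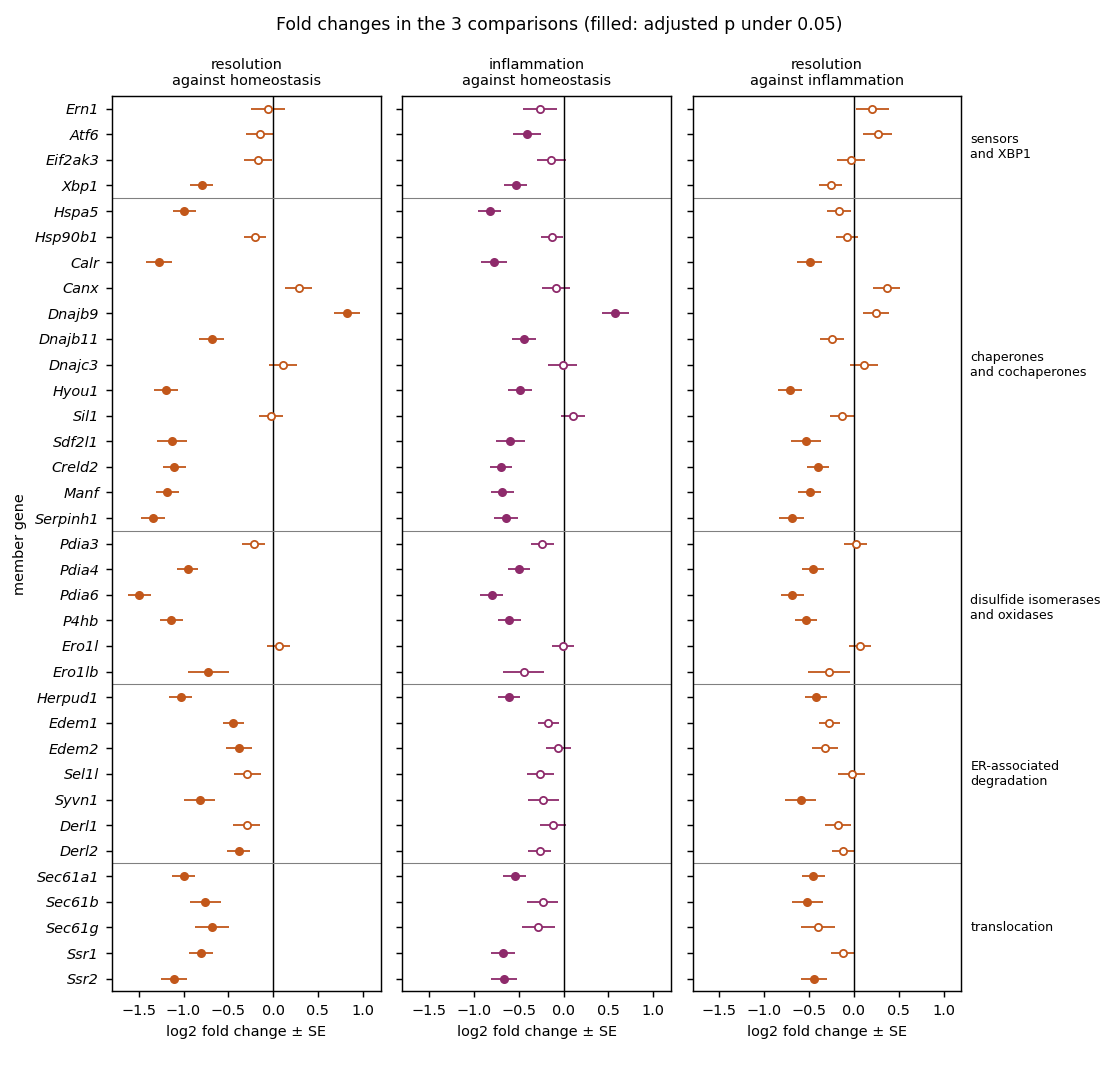
Log2 fold change ± SE (horizontal axis) of the 35 tested genes (rows, by role) in resolution against homeostasis, inflammation against homeostasis and resolution against inflammation, n = 4 libraries a group, filled where adjusted p is under 0.05. The left panel reaches from -1.49 (Pdia6) to 0.82 (Dnajb9), all 5 translocation genes are filled there, and the 3 sensors lie between -0.17 and -0.05.

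Of the 6 disulfide isomerases and oxidases, 4 fell and 2 missed the threshold in resolution against homeostasis (median log2 fold change -0.84). In inflammation 3 fell (median -0.47). The shares of all genes that fell were 25.8% and 18.3% in these comparisons. Pdia6 (chr12:17266545-17284770, plus strand), an isomerase that also binds IRE1, stood at 588, 670.3, 487 and 530.3 CPM in resolution, 992, 928, 886 and 859.9 CPM in inflammation and 1386, 1729, 1608 and 1674 CPM in homeostasis. The 3 groups were well apart. Its fall in resolution against homeostasis was the largest of the 35 genes at 2.81-fold (-1.49 ± 0.13 SE, adjusted p = 1.56e-08). It also fell by 1.745-fold in inflammation (-0.80 ± 0.13 SE, adjusted p = 6.27e-05) and by 1.61-fold between resolution and inflammation (-0.69 ± 0.13 SE, adjusted p = 0.000883). P4hb (chr11:120560298-120573253, minus strand), the isomerase PDI and subunit of collagen prolyl 4-hydroxylase, stood at 1773, 1954, 1448 and 1548 CPM in resolution, 2517, 2467, 2424 and 2335 CPM in inflammation and 3077, 3909, 3761 and 4056 CPM in homeostasis. No groups overlapped, and P4hb fell by 2.20-fold in resolution (-1.14 ± 0.13 SE, adjusted p = 5.77e-07), by 1.52-fold in inflammation (-0.60 ± 0.13 SE, adjusted p = 0.00102) and by 1.45-fold between them (-0.535 ± 0.13 SE, adjusted p = 0.00731).

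Pdia4 (ERp72) fell to 503 ± 26.1 CPM in resolution and 690.2 ± 42.6 CPM in inflammation, against 974 ± 128 CPM in homeostasis (-0.95 ± 0.12 SE, adjusted p = 2.3e-06 and -0.50 ± 0.12 SE, adjusted p = 0.00295), and it fell between resolution and inflammation too (-0.46, adjusted p = 0.014). Pdia3 (ERp57), which works with calreticulin and calnexin on glycoproteins, averaged 1897 ± 96.7, 1870 ± 208 and 2201 ± 336 CPM in resolution, inflammation and homeostasis and passed in none (-0.215, adjusted p = 0.166 in resolution against homeostasis), but it was lower in resolution with GC and length offsets (-0.30, adjusted p = 0.00563). Both ERO1 oxidases recharge the isomerases. Ero1l averaged 134 ± 11.5, 127.5 ± 13.7 and 128 ± 14.9 CPM and did not pass (0.06, adjusted p = 0.709 in resolution against homeostasis), although it was lower with GC and length offsets (-0.67, adjusted p = 0.000107). The rare Ero1lb fell to 3.46 ± 1.08 CPM in resolution, against 5.73 ± 1.17 CPM in homeostasis (-0.72 ± 0.23 SE, adjusted p = 0.0128). The call was lost without homeostasis 1 (-0.59, adjusted p = 0.0531) and with homeostasis 3 and 4 as the controls.

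Of the 7 tested genes of ER-associated degradation, 5 fell in resolution against homeostasis (median log2 fold change -0.385). In inflammation 1 fell (median -0.22), and in resolution against inflammation 2 fell (median -0.28). The shares of all genes that fell were 25.8%, 18.3% and 7.64%, so the 1 fall in inflammation does not exceed the share of all genes. Herpud1 (chr8:94386438-94395377, plus strand), a membrane protein that assembles the degradation complex, stood at 40.8, 54.6, 41.35 and 42.9 CPM in resolution, 59.8, 63.6, 58.7 and 59.4 CPM in inflammation and 88.1, 95.9, 90.4 and 93.0 CPM in homeostasis. The groups did not overlap. Herpud1 fell by 2.045-fold in resolution (-1.03 ± 0.125 SE, adjusted p = 1.35e-06) and by 1.52-fold in inflammation (-0.61 ± 0.12 SE, adjusted p = 0.000763). It also fell between resolution and inflammation (-0.43 ± 0.12 SE, adjusted p = 0.0249), a call that held in 7 of 12 fits with a library left out and was lost without resolution 1, 3 or 4 or inflammation 1 or 2 (adjusted p between 0.0529 and 0.0781). Syvn1, the ubiquitin ligase HRD1 at the centre of that complex, fell to 43.4 ± 13.0 CPM in resolution, against 65.5 ± 2.07 CPM in inflammation and 76.5 ± 12.1 CPM in homeostasis (-0.82 ± 0.17 SE, adjusted p = 0.000559 against homeostasis, -0.59 ± 0.17 SE, adjusted p = 0.0245 against inflammation). Resolution 2, at 61.2 CPM, lay within the homeostasis range. The Syvn1 call against inflammation held in 7 of 12 fits with a library left out (largest adjusted p = 0.0935).

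Its partner Sel1l did not pass in any comparison (-0.29, adjusted p = 0.118 in resolution against homeostasis). It was lower in resolution without homeostasis 4 (-0.38, adjusted p = 0.0434), with homeostasis 1 and 2 as the controls (-0.50, adjusted p = 0.0143) and with GC and length offsets (-0.41, adjusted p = 0.000653), and lower in inflammation with homeostasis 1 and 2 as the controls (-0.46, adjusted p = 0.0299). Edem1 and Edem2, which act on the glycans of misfolded proteins, fell in resolution (-0.44 ± 0.12 SE, adjusted p = 0.00358 and -0.38 ± 0.14 SE, adjusted p = 0.0328). The Edem2 call was lost with the replicate block (-0.38, adjusted p = 0.0579), with GC and length offsets (-0.08, adjusted p = 0.451) and without homeostasis 3 or 4 or resolution 1, 3 or 4 (adjusted p between 0.059 and 0.132). It was also lost with upper-quartile factors, with only the 2 groups compared and with homeostasis 1 and 2 as the controls. The Edem2 call thus passed in 11 of 21 alternatives. Of the derlins, which help to export misfolded proteins, Derl2 fell to 56.25 ± 5.79 CPM in resolution, against 73.4 ± 4.93 CPM in homeostasis (-0.385 ± 0.13 SE, adjusted p = 0.0172). The Derl2 call was lost without resolution 3 (-0.31, adjusted p = 0.0716) and with homeostasis 1 and 2 as the controls. Derl1 did not pass (-0.30, adjusted p = 0.093), though it did without homeostasis 1 (-0.38, adjusted p = 0.0388) and with homeostasis 3 and 4 as the controls (-0.485, adjusted p = 0.00993). Derl3 was at or below 0.513 CPM in every library.

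All 5 translocation genes fell in resolution against homeostasis (median log2 fold change -0.80), 3 in inflammation (median -0.55) and 3 in resolution against inflammation (median -0.44). The shares of all genes that fell were 25.8%, 18.3% and 7.64%. Ssr2 (chr3:88575876-88588419, plus strand), the beta subunit of the translocon-associated protein complex, stood at 96.7, 106, 74.85 and 82.0 CPM in resolution, 144, 121, 115 and 108 CPM in inflammation and 160.2, 181, 200.2 and 233 CPM in homeostasis. No groups overlapped. Ssr2 fell by 2.16-fold in resolution (-1.11 ± 0.15 SE, adjusted p = 4.13e-06) and by 1.59-fold in inflammation (-0.67 ± 0.15 SE, adjusted p = 0.00138). Its call between resolution and inflammation (-0.44, adjusted p = 0.0445) did not pass with the replicate block (-0.445, adjusted p = 0.0788). That call held in only 5 of 12 fits with a library left out (largest adjusted p = 0.149). Sec61a1, the pore-forming subunit of the channel, stood at 212, 254, 189 and 181 CPM in resolution, 291, 300.3, 290.0 and 263 CPM in inflammation and 390.3, 367, 455 and 459 CPM in homeostasis, with no overlap between groups. It fell by 2.00-fold in resolution (-1.0 ± 0.13 SE, adjusted p = 3.65e-06), by 1.46-fold in inflammation (-0.55 ± 0.13 SE, adjusted p = 0.00272) and by 1.37-fold between them (-0.45 ± 0.13 SE, adjusted p = 0.0236). The last call held in 7 of 12 fits with a library left out (largest adjusted p = 0.0876).

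The small channel subunits Sec61b and Sec61g fell in resolution (-0.76 ± 0.17 SE, adjusted p = 0.00112 and -0.68 ± 0.19 SE, adjusted p = 0.00494) and did not pass in inflammation (-0.23, adjusted p = 0.297 and -0.28, adjusted p = 0.245); with homeostasis 3 and 4 as the controls Sec61b did (-0.48, adjusted p = 0.0188). Homeostasis 2 had 33.6 CPM of Sec61b, within the resolution range, against 48.5 to 63.3 CPM in the other homeostasis libraries. The fall of Sec61b between resolution and inflammation (-0.52, adjusted p = 0.0446) did not pass with the replicate block (-0.525, adjusted p = 0.0743). It passed in 7 of 12 fits with a library left out (largest adjusted p = 0.125). Ssr1, the alpha subunit beside Ssr2, fell to 211 ± 14.0 CPM in resolution and 230.3 ± 11.4 CPM in inflammation, against 368 ± 75.4 CPM in homeostasis (-0.80 ± 0.14 SE, adjusted p = 6.48e-05 and -0.68 ± 0.14 SE, adjusted p = 0.000657), and did not pass between the doxycycline groups (-0.125, adjusted p = 0.54), although it did with GC and length offsets (-0.51, adjusted p = 0.0163).

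The size of the change varied with the GC content of the transcript. Over the 35 genes, whose GC content ran from 40.6% to 57.4%, Pearson's r with the log2 fold change was -0.59 in resolution against homeostasis, -0.40 in inflammation against homeostasis and -0.67 in resolution against inflammation (Spearman's rho -0.57, -0.335 and -0.68; across genes of the same libraries, which are not independent replicates). All genes tested shifted with GC content too: in resolution against homeostasis their median was 0.75 below 45% GC, 0.050 at 45 to 50%, -0.25 at 50 to 55% and -0.29 from 55% up. The medians of the 35 genes in the same ranges were -0.21 (n = 9), -0.37 (n = 8), -1.0 (n = 13) and -1.11 (n = 5), below those of all genes in each range. Of the 35 genes, 31 lay below the median of all genes in their range in resolution against homeostasis, 31 in inflammation against homeostasis and 30 in resolution against inflammation. With offsets for GC content and length in each library, which take out any difference tied to these properties whatever its source, 29 of 35 fell and 1 rose (Sil1) in resolution against homeostasis, where 52.3% of all genes passed (25.7% higher, 26.7% lower). In inflammation 22 fell and 1 rose (42.5% of all genes, 21.1% higher and 21.4% lower), and between resolution and inflammation 17 fell and 0 rose (15.5% of all genes, 6.41% higher and 9.10% lower). Over all genes the last comparison gave 964 higher and 1369 lower with the offsets, against 1282 and 1149 without. The medians of the 35 genes were -0.69, -0.39 and -0.30 with the offsets.

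Some calls changed with the offsets beyond those given above. In inflammation against homeostasis Dnajb11 did not pass (-0.24, adjusted p = 0.0608), while Hsp90b1 (-0.31, adjusted p = 0.00671), Canx (-0.40, adjusted p = 0.00142), Dnajc3 (-0.26, adjusted p = 0.0401), Ero1l (-0.39, adjusted p = 0.0113), Ero1lb (-0.61, adjusted p = 0.0103) and Derl2 (-0.57, adjusted p = 0.0082) were lower and Sil1 higher (0.22, adjusted p = 0.0284). Between resolution and inflammation Creld2 (-0.205, adjusted p = 0.0823), Sec61b (-0.455, adjusted p = 0.0802) and Ssr2 (-0.23, adjusted p = 0.0603) did not pass. In the same comparison Hsp90b1 (-0.36, adjusted p = 0.0066), Ero1lb (-0.60, adjusted p = 0.0327), Edem1 (-0.54, adjusted p = 0.0213) and Sec61g (-0.645, adjusted p = 0.0291) were lower. Called falls in resolution against homeostasis that moved by over 1.5 times were smaller for Xbp1 (-0.52, adjusted p = 5.7e-05) and Syvn1 (-0.53, adjusted p = 0.00147) and larger for Ero1lb (-1.205, adjusted p = 2.74e-05), Edem1 (-0.71, adjusted p = 0.000867), Derl2 (-0.99, adjusted p = 6.18e-05), Sec61g (-1.08, adjusted p = 0.000149) and Ssr1 (-1.39, adjusted p = 2.6e-07).

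**Figure D5:**
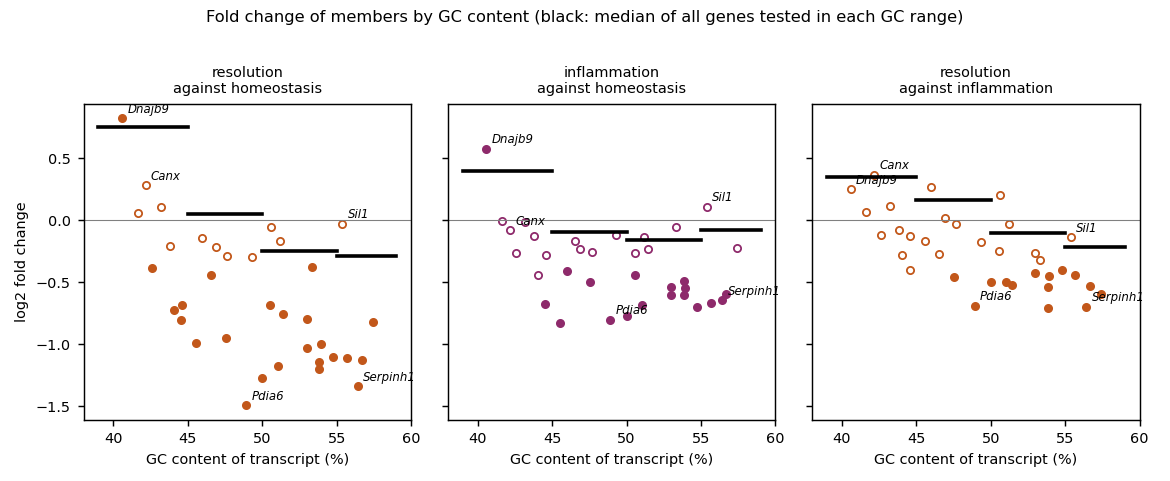
Log2 fold change of the 35 tested genes (vertical axis) against the GC content of the longest coding transcript (horizontal axis, %) in the 3 comparisons, filled where adjusted p is under 0.05. Black bars give the median of all genes tested in each GC range, the outer bars drawn to the edge of the genes shown; in resolution against homeostasis they step down from 0.75 to -0.29, and 31 of the 35 points lie below them.

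Other genes of the pathway, outside the 36, fell in part and rose in part, and no list was tested against all genes. Of all genes tested, 25.8% fell and 27.5% rose in resolution against homeostasis, and 18.3% fell and 19.0% rose in inflammation. Between resolution and inflammation 7.64% fell and 8.52% rose. The counts of each list below stand beside these shares. Of 15 tested genes of signalling and output, 8 fell and 1 rose in resolution against homeostasis (median log2 fold change -0.51). In inflammation 7 fell (median -0.35), and 1 fell and 1 rose between resolution and inflammation (median -0.17). With GC and length offsets 7 fell and 0 rose in resolution against homeostasis, and 7 fell and 2 rose in inflammation. Between resolution and inflammation 1 fell and 2 rose with them. Ern2, an IRE1 paralogue known from mucous epithelia, averaged 0.0694 ± 0.0599, 0.5235 ± 0.197 and 1.73 ± 0.335 CPM in resolution, inflammation and homeostasis (-4.50 ± 0.54 SE, adjusted p = 1.17e-06 in resolution against homeostasis, with 0 to 3 counts in each resolution library). Trib3, a pseudokinase induced through ATF4, fell to 4.75 ± 0.810 CPM in resolution, against 12.1 ± 2.43 CPM in homeostasis (-1.35 ± 0.20 SE, adjusted p = 1.16e-05), and so did Creb3l1, a membrane-bound factor related to ATF6 that drives collagen genes (-0.97 ± 0.16 SE, adjusted p = 4.23e-05).

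Of 21 other ER chaperones and prolyl isomerases, 10 fell and 3 rose in resolution against homeostasis (median -0.24). In inflammation 7 fell and 3 rose (median -0.22), and 4 fell between resolution and inflammation (median -0.045). With GC and length offsets 11 fell and 1 rose in resolution against homeostasis, and 9 fell and 2 rose in inflammation. Fkbp11 fell to 16.8 ± 2.94 CPM in resolution, against 58.9 ± 12.0 CPM in homeostasis (-1.81 ± 0.17 SE, adjusted p = 6.69e-08). Fkbp10, a collagen-binding prolyl isomerase, fell to 348 ± 69.5 CPM in resolution, against 622 ± 49.0 CPM in inflammation and 788 ± 122 CPM in homeostasis (-1.18 ± 0.15 SE, adjusted p = 2.06e-06 against homeostasis). Its difference in inflammation did not pass (-0.34, adjusted p = 0.0716; with GC and length offsets -0.24, adjusted p = 0.0116), and Fkbp2 fell in both (-1.26 ± 0.16 SE and -0.83 ± 0.16 SE).

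Of 14 other isomerases and oxidases, 6 fell and 3 rose in resolution against homeostasis (median -0.27). In inflammation 7 fell and 1 rose (median -0.25), and 2 fell and 1 rose between the doxycycline groups (median 0.042). With GC and length offsets 8 fell and 2 rose in resolution against homeostasis, and 6 fell and 1 rose in inflammation. Pdia5 and Txndc11 fell in resolution (-1.16 ± 0.12 SE, adjusted p = 2.63e-07 and -0.88 ± 0.12 SE, adjusted p = 7.25e-06), whereas the transmembrane isomerase Tmx3 rose to 66.1 ± 8.56 CPM, against 31.2 ± 4.74 CPM in homeostasis (1.085 ± 0.15 SE, adjusted p = 5.37e-06). That rise was gone with GC and length offsets (-0.07, adjusted p = 0.538). Of 20 other degradation genes, 3 fell and 6 rose in resolution against homeostasis (median -0.07), where 25.8% of all genes fell and 27.5% rose. In inflammation 1 fell and 4 rose (median -0.07), where 18.3% of all genes fell and 19.0% rose. Between resolution and inflammation 1 fell and 3 rose (median 0.013), where 7.64% of all genes fell and 8.52% rose. With the offsets 6 fell and 7 rose in resolution against homeostasis, and 2 fell and 1 rose between the doxycycline groups. Ngly1, which strips glycans from exported proteins, rose in resolution (1.19 ± 0.16 SE, adjusted p = 4.81e-06), as did Edem3 (1.25 ± 0.195 SE, adjusted p = 2.6e-05) and Fam8a1, listed as C78339 and a partner of HRD1 (1.075 ± 0.17 SE, adjusted p = 2.83e-05), and each also passed with the offsets (0.57, adjusted p = 0.000305 for Ngly1, 0.60, adjusted p = 0.00146 for Edem3, 0.85, adjusted p = 0.000148 for C78339).

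Of 19 other genes of translocation and signal peptides, 8 fell and 2 rose in resolution against homeostasis (median -0.08), 5 fell and 2 rose in inflammation (median -0.19), and 1 rose between the doxycycline groups (median -0.012). Srp68 and Srprb, of the signal recognition particle and its receptor, and Tram2 fell in resolution (-0.71 ± 0.11 SE, adjusted p = 3.43e-05 for Srp68, -0.77 ± 0.13 SE, adjusted p = 8.29e-05 for Srprb, -1.06 ± 0.19 SE, adjusted p = 9.85e-05 for Tram2). With the offsets the values were smaller for Srp68 (-0.39, adjusted p = 0.00132) and Srprb (-0.50, adjusted p = 0.000398). Over the 19 genes more falls were called with the offsets. In resolution against homeostasis 12 fell and 1 rose (median -0.394), and in inflammation 9 fell and 1 rose (median -0.318). Of 16 genes of N-glycosylation and glycan trimming, 9 fell and 2 rose in resolution (median -0.38). In inflammation 4 fell and 1 rose (median -0.17), and 3 fell between resolution and inflammation (median -0.18). With the offsets 8 fell and 1 rose in resolution against homeostasis, and 6 fell and 1 rose in inflammation. Rpn1, of the oligosaccharyltransferase, and Mogs, glucosidase I, fell in resolution (-1.07 ± 0.125 SE, adjusted p = 8.94e-07 and -1.33 ± 0.16 SE, adjusted p = 1.1e-06), and Uggt2 rose (1.25 ± 0.21 SE, adjusted p = 4.99e-05; with the offsets 0.42, adjusted p = 0.0301).

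Among neighbouring stress systems, the 20 genes of the amino acid arm of the integrated stress response, which lies downstream of PERK and of other eIF2α kinases, had 16 that fell and 1 that rose in resolution against homeostasis (median -0.88). In inflammation 15 fell and 1 rose (median -0.65), and between the doxycycline groups 7 fell and 1 rose (median -0.25). Psat1 and Phgdh, of serine synthesis, fell to 40.9 ± 2.78 and 37.7 ± 5.76 CPM in resolution, against 203 ± 20.9 and 161.5 ± 25.8 CPM in homeostasis (-2.31 ± 0.13 SE, adjusted p = 2.46e-11 and -2.10 ± 0.15 SE, adjusted p = 1.09e-09), and the amino acid transporter gene Slc7a5 fell as well (-2.32 ± 0.17 SE, adjusted p = 1.95e-09). Of 20 cytosolic and mitochondrial chaperones, 6 fell and 5 rose in resolution (median -0.23), where 25.8% of all genes fell and 27.5% rose. In inflammation 5 fell and 4 rose (median -0.21), where 18.3% of all genes fell and 19.0% rose. Between resolution and inflammation 2 rose (median 0.008), where 8.52% of all genes did. The 2 cytosolic HSP90 genes went in opposite directions in resolution against homeostasis, Hsp90aa1 higher (0.85 ± 0.14 SE, adjusted p = 4.68e-05) and Hsp90ab1 lower (-0.60 ± 0.11 SE, adjusted p = 0.000193), and the cochaperone Dnajb4 was higher (1.13 ± 0.14 SE, adjusted p = 1.96e-06). With the offsets these values shrank to 0.34, adjusted p = 0.022 for Hsp90aa1, -0.37, adjusted p = 0.000676 for Hsp90ab1 and 0.25, adjusted p = 0.0474 for Dnajb4. Whether any of these lists differed from the 36 genes was not tested.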

How the data were processed

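The values are estimated counts per gene, deposited by the authors without normalization in 1 table over all libraries. The submitters' processing notes name GRCm38.p3. Not given in the sources used here are the aligner, counter, strand setting and annotation. Hence overlapping genes and near-identical copies of a gene could share reads. Whole numbers made up all but 1.43% of the deposited values. Of 36930 entries, 13 carried no value and 42 repeated ones were summed, after which counts were rounded. Groups and replicate numbers came from the sample titles.

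Library sizes were scaled by TMM, and 15049 genes passed the expression filter of edgeR 4.0.16 (R 4.3.3). Its quasi-likelihood F test, with robust moderation and group as the only term, was fitted to all 12 libraries, with Benjamini-Hochberg adjustment over all genes tested (threshold 0.05). Every adjusted p in the text comes from this test or from the alternative named beside it. Levels are normalized CPM, given per library or as mean ± SD (n = 4), and fold changes on the log2 scale stand with their SE. The biological coefficient of variation was 18.6%. A trial of the test on simulated counts gave every gene the same spread and changed few genes. These data differ in both, so the trial does not vouch for the calls.

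TPM, GC content and length came from the longest coding transcript of each gene in GENCODE M21 (GRCm38), which gave both for 93.9% of the genes tested. Gene positions are from the same annotation and promoter windows from RefSeq (GRCm38.p6). Motifs were searched on both strands as exact letters. No window was at hand for Atf6, Hyou1, Sil1, Manf, Derl1, Sec61a1 and Ssr2. The alternatives were DESeq2 1.42.0 and its size factors, upper-quartile factors, no filter, only the 2 groups compared, the replicate number as a block, homeostasis 1 and 2 or 3 and 4 as the controls, each library left out, and GC and length offsets (loess, span 0.3).

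Same-numbered libraries of resolution and inflammation deviated together (correlations of 0.14, 0.13, 0.21 and 0.14 over genes), which is the sole ground for pairing them, and those of homeostasis did not (-0.23 to 0.080 with either group). Members, gene lists and the rule for named genes were chosen with earlier results of these data known. Genes with values in every library were the sensors, Xbp1, Hspa5 and members that passed with an absolute log2 fold change of at least 1, and Sec61a1 (2.00-fold), Dnajb9 and single libraries of Syvn1 and Sec61b, which were chosen after their values were seen. Of each other list the 3 genes with the smallest adjusted p in any comparison are named.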

Additional observations from a re-analysis of the deposited data

Results flagged for a closer look

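Of 108 groups of 4 libraries tested over the 36 genes, 7 held a library far from the other 3, judged by Dixon's ratio of its gap to the group's range, where chance flags about 1 in 20. In inflammation, Eif2ak3 stood at 70.5 CPM in library 4 and at 48.0 to 49.5 CPM in the others (ratio 0.934), and Hyou1 at 474 CPM in library 1 and at 506 to 510.2 CPM in the others (ratio 0.878). In resolution, library 2 was high for Herpud1 (54.6 CPM, others 40.8 to 42.9; ratio 0.843) and low for Ssr1 (190.3 CPM, others 215 to 219.8; ratio 0.852). Derl3 stood at 0.412 CPM in resolution 1 and at 0.0924 to 0.140 CPM in the others (ratio 0.851), with 16 counts over the group. In homeostasis, library 2 was high for Dnajb11 (535 CPM, others 379.7 to 406; ratio 0.833) and Pdia4 (1165 CPM, others 900.7 to 922; ratio 0.917). The falls of Hyou1, Herpud1, Ssr1, Dnajb11 and Pdia4 in resolution against homeostasis passed in all 12 fits with a library left out.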

How the results depend on the processing

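Over 21 alternatives, the genes with called falls of at least 2-fold in resolution against homeostasis passed under each one, and so did Hspa5, Xbp1, Pdia4, Sec61a1, Sec61b, Sec61g, Ssr1, Syvn1, Edem1 and Dnajb11. GC and length offsets turned 4 values there, to -0.40 for Canx, -0.52 for Dnajc3, 0.29 for Sil1 and -0.67 for Ero1l. With the offsets 29 members were lower, against 23 without. With homeostasis 3 and 4 as the controls 2 members were higher (Canx beside Dnajb9), against 1. Leaving out 1 library at a time gave 1 to 2 members higher and 21 to 23 lower in resolution against homeostasis, 15 to 17 lower in inflammation against homeostasis, and, in resolution against inflammation, 0 to 1 higher, 5 to 15 lower and 1242 to 4191 genes passed in all. The cause was not tested. With the replicate number as a block, 22, 16 and 10 members were lower in the 3 comparisons and 7589, 5053 and 1898 genes passed, and beyond Edem2, Atf6, Sdf2l1, Creld2, Sec61b and Ssr2, whose values stand in the report, the replicate block changed no call of a member. Without the filter on low counts Creld2 and Herpud1 did not pass between resolution and inflammation (adjusted p = 0.0616 and 0.0524). Depth limits Derl3, with 16, 13 and 25 counts in resolution, inflammation and homeostasis.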
